A study of Mus musculus with 2 samples.

Results

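The 6 Ly49 genes described here, Klra3, Klra4, Klra5, Klra7, Klra8 and Klra9, are 6 of the 32285 genes counted in 1 pooled single-cell library of mouse spleen. They were chosen as members of 1 gene family and not by a rule on their values, though earlier results of these data were known. They were read in natural killer (NK) cells, with T cells beside them. The spleens came from C57BL/6 mice, which had all been made allergic to ovalbumin (OVA) on days 0 and 10. The labels give their age as 8 weeks, which cannot be the age at harvest, since the spleens were taken on day 80. One condition then stayed untreated. The second received a standard desensitization, with OVA in PBS (days 20, 22 and 24) followed by OVA in Alum (days 40 and 60). The third received a DCIR-2-Fusion protein carrying OVA, on the same 3 days as the PBS doses. On day 80, per the study's methods, the mice were given OVA again shortly before the spleens were taken, which is a stimulus in vivo beside the one in culture. The cells of every condition were stimulated for 3 h with PMA and ionomycin, which activate lymphocytes without any receptor. CD11b+ and CD11b- cells were sorted and mixed in equal parts, so the share of CD11b+ NK cells is set partly by the sort. The sources give no key from the 4 antibody hashtags to the 3 conditions, so no condition was compared.

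Ly49 proteins are lectin-like receptors on NK cells that read MHC class I molecules on other cells. Each NK cell switches on its own subset of the genes, so the cells of 1 mouse carry many different receptor sets. Inhibitory members hold a tyrosine motif that recruits the phosphatase SHP-1 (Ptpn6) and restrains the cell, and activating members lack it and signal through the adaptor DAP12 (Tyrobp). In the mouse strain used, Klra3 encodes Ly49C and Klra9 encodes Ly49I, inhibitory receptors for the strain's own H-2K b. Klra7 encodes Ly49G, an inhibitory receptor whose best known ligand, H-2D d, this strain lacks. Klra5 encodes Ly49E, an inhibitory receptor known from fetal NK cells. Klra4 encodes the activating Ly49D, and Klra8 encodes the activating Ly49H, which binds the m157 protein of mouse cytomegalovirus.

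All 6 genes lie on the minus strand of chromosome 6 (GRCm38, GENCODE vM21), Klra5 at chr6:129898996-129917650, Klra4 at chr6:130043731-130067271, Klra8 at chr6:130115226-130129898, Klra9 at chr6:130178675-130193112, Klra7 at chr6:130218605-130233322 and Klra3 at chr6:130323289-130337574. The first 90 coding bases of each gene, which encode the start of the tail inside the cell, are shown to compare inhibitory and activating members. Only these bases were searched for positions that separate the classes, and what each position does was not tested. Capitals mark the 6 positions at which all 4 inhibitory members share the same base and both activating members share a different base. The sequences were read 5′ to 3′ from the GENCODE vM21 transcripts.
Klra3 (inhibitory): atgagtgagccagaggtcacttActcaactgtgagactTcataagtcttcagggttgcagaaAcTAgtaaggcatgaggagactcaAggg
Klra9 (inhibitory): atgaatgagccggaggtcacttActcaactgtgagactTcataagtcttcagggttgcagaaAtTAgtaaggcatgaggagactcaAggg
Klra5 (inhibitory): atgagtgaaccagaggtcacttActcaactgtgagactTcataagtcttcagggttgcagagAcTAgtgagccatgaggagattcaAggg
Klra7 (inhibitory): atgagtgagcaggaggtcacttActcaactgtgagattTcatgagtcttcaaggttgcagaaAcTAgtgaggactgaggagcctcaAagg
Klra4 (activating): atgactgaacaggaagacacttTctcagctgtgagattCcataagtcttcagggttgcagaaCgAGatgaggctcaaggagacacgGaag
Klra8 (activating): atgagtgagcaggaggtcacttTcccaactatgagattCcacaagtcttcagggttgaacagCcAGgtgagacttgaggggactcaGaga

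Counted from 1 at the A of the start codon, with the inhibitory base first, these positions are A23T, T39C, A63C, T65A, A66G and A87G. Within these 90 bases Klra3 differed from Klra9 at 3 positions, from Klra5 at 5, from Klra7 at 10, from Klra8 at 21 and from Klra4 at 24. Over the whole coding sequence the order was another one. Klra8 matched Klra9 at 91.9% and Klra3 at 90.5% of aligned positions, closer than it matched its fellow activating gene Klra4 at 77.4%. Klra3 and Klra9 were the closest pair, at 95.9% of the coding sequence and 98.2% of the last 500 bases of the transcript, the end that a 3′ library reads. Of all stretches of 90 bases, the length of the cDNA read, in those last 500 bases, 8.52% in Klra3, 14.1% in Klra9 and 10.2% in Klra7 also occurred without a mismatch in another Ly49 gene or pseudogene. Klra4, Klra5 and Klra8 had 0 such stretches. For Klra3 and Klra9 the genes sharing a stretch included Klra10. Counts of Klra3, Klra7 and Klra9 are therefore uncertain. These shares count positions and not reads, so the size of the uncertainty was not measured.

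Of 16829 barcodes, 16325 held 200 genes or more and no more than 10% mitochondrial UMIs (unique molecular identifiers, each counting 1 captured RNA molecule). NK cells were the 4794 with at least 2 UMIs of Ncr1 and Klre1 and none of Cd3d, Cd3e and Cd3g, and T cells the 1758 with at least 2 UMIs of these Cd3 genes and no Ncr1. Most NK and T cell markers matched the gates. Klrk1 was found in 96.3% of NK-gated cells, Gzma in 97.0% and Prf1 in 94.3%, and Trac in 85.9% of T-gated cells. Klrd1 was found in 51.4%, Eomes in 48.2% and Klrb1c in 36.7% of NK-gated cells. Trdc, a gamma delta T cell gene, went the other way, in 23.4% of NK-gated and 7.74% of T-gated cells. The gates were not clean, since 12.3% of T-gated cells held Klre1 and S100a8, a neutrophil gene, was found in 16.0% of NK-gated and 16.4% of T-gated cells. Median depth was 5841 UMIs in NK-gated and 9785 in T-gated cells, and Scrublet marked 10.5% and 15.02% of them as doublets.

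NK cells carried the family at high level and in nearly every cell. At least 1 UMI of a member was found in 94.4% of NK-gated cells (exact 95% interval 93.7 to 95.02), and the 6 genes together made 1682 UMIs per 1000000 (CPM; exact Poisson 95% interval 1669 to 1695). Both kinds of interval cover counting error only, since cells of 1 library are not replicates. The activating Klra4 stood first by level, with 572 CPM (564 to 580), followed by Klra9 with 403 CPM (397 to 410), Klra7 with 322 CPM (316 to 328) and Klra8 with 217 CPM (212 to 222). Klra3 stood at 146 CPM (142 to 150) and Klra5 at 22.0 CPM (20.5 to 23.6). None of these intervals overlap, so the order of levels is separated beyond counting error. A 3′ library gives 1 UMI per transcript whatever its length, so these levels needed no scaling by length.

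By share of cells the order was less clear. Klra4 was found in 56.8% of NK-gated cells (55.4 to 58.2) and Klra9 in 56.5% (55.1 to 57.9), and these intervals overlap. Klra7 was found in 53.1%, Klra8 in 47.2%, Klra3 in 27.4% and Klra5 in 3.55%. The members thus differed in how much a positive cell held. A Klra4-positive cell held a median of 6 UMIs, a Klra7-, Klra9- or Klra5-positive cell a median of 4, and a Klra3- or Klra8-positive cell a median of 3. More than 10 UMIs of Klra4 were found in 12.7% of all NK-gated cells and more than 10 of Klra9 in 7.07%, against 1.19% for Klra3, and the highest single count was 65 UMIs of Klra4. Single UMIs added little to any total: cells with 3 or more UMIs held from 79.9% of the UMIs of Klra8 to 96.5% of those of Klra4.

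**Figure D1:**
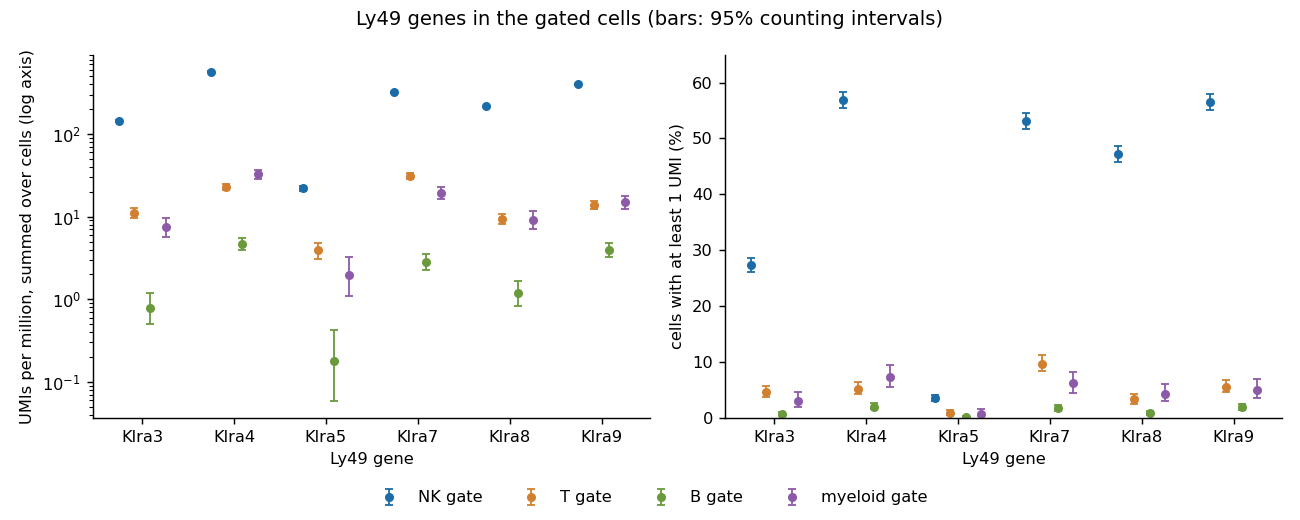
Level (left, CPM, log axis) and share of cells with at least 1 UMI (right) of each Ly49 gene in the NK, T, B and myeloid gates; points are values of the pooled library and bars 95% counting intervals. The NK gate lies above the other gates for every gene, and Klra5 is the lowest gene in each gate.

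Outside NK cells the levels were low but not alike. The B gate, 2636 cells whose median depth of 8934 UMIs was close to that of T cells, gives a level for cells that should lack the family: it held a member in 5.46% of cells and 13.7 CPM in all. The B and myeloid gates leave out every cell with a Klre1 UMI, while the T gate keeps such cells, so the gates are not alike in this. T-gated cells held a member in 17.3% (15.6 to 19.2) and 92.3 CPM (88.3 to 96.5), which lies above the B gate. Without the T-gated cells that held Klre1, the T values were 11.3% and 35.8 CPM. The NK level was 18.2 times the T level (17.4 to 19.1). This ratio was 29.1 for Klra9, 25.1 for Klra4, 23.0 for Klra8, 13.1 for Klra3, 10.3 for Klra7 and 5.65 for Klra5. Klra7 stood first in T cells, with 31.3 CPM in 9.67% of cells, followed by Klra4 with 22.7 CPM in 5.18%. Myeloid-gated cells held 85.8 CPM (79.4 to 92.7) in 13.8% of cells, with Klra4 first at 32.8 CPM. This interval overlaps that of the T level, so T cells did not lie clearly above the myeloid gate. Without the Klre1-holding cells the T level of 35.8 CPM lay below it. At 2000 UMIs the myeloid gate held 182 CPM in 8.70% of cells, and T cells 101 CPM in 8.85%.

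Leaving out the cells that Scrublet marked moved the T values unequally. Klra4 in T cells went from 22.7 to 11.5 CPM and Klra8 from 9.42 to 5.09 CPM, whereas Klra7 went only from 31.3 to 29.6 CPM. With these cells left out Klra7 stayed first in T cells, while in NK cells Klra4 stayed above Klra7 (647 against 365 CPM). The family's level in the B gate went from 13.7 to 6.22 CPM.

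Most NK cells carried more than 1 member. Counting every UMI, 5.61% of NK-gated cells showed no member, 16.9% showed 1, 28.8% 2, 29.0% 3, 15.6% 4, 4.005% 5 and 0.104% (5 cells) all 6, a mean of 2.45. A deeper cell shows more genes, so each cell was also thinned at random to 2000 UMIs, which left 4736 cells and dropped 58 shallower ones. At this depth 14.5% showed no member, 30.8% 1, 31.0% 2, 17.8% 3, 5.32% 4 and 0.465% 5, and the mean was 1.70 (1.67 to 1.73). No cell of the 4736 showed all 6 at this depth, and a count of 0 allows up to 0.0633% by the limit of 3 counts (0.0779% as the exact interval's upper bound). This limits cells with a UMI of every member among 2000, not cells that express all 6. T cells thinned the same way had a mean of 0.119 members and none in 91.2% of cells.

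**Figure D2:**
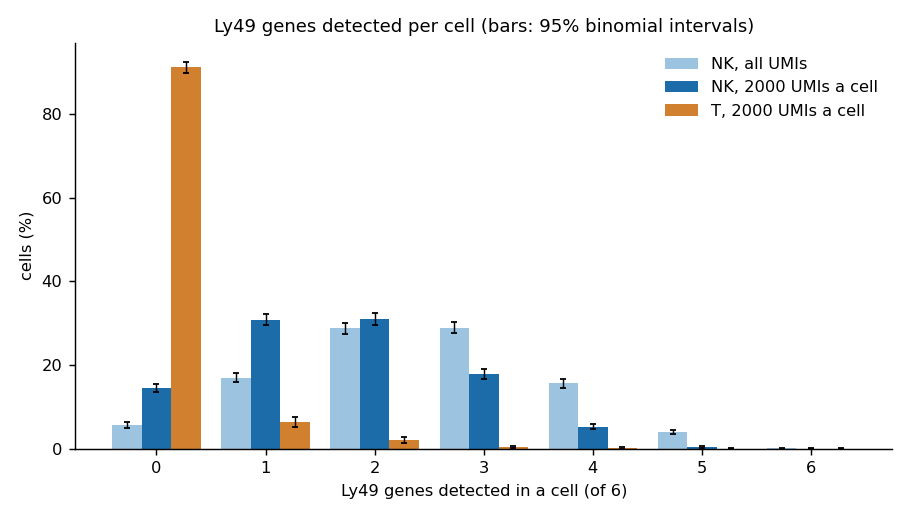
Share of cells (%) that showed 0 to 6 Ly49 genes, in NK-gated cells with all UMIs (light blue), in NK-gated cells thinned to 2000 UMIs (dark blue) and in T-gated cells thinned to 2000 UMIs (orange), with exact 95% binomial intervals as bars. NK cells center on 2 members, and 91.2% of T cells show none.

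Nearly every combination was detected. Of the 64 possible sets, 60 were found in NK-gated cells both with all UMIs and at 2000 UMIs. A set counts here from 1 UMI of each gene in 1 cell, and the rarest sets held 1 cell each. Scrublet marked 10.5% of NK-gated cells as doublets, and with all UMIs the B gate held a member in 5.46% of cells. How many rare sets come from doublets or from RNA of other cells was not tested. No set was dominant. At 2000 UMIs the largest after the empty set were Klra9 alone with 472 cells (9.97%), Klra4 alone with 443 (9.35%), Klra4 with Klra7 with 297 (6.27%) and Klra7 alone with 286 (6.04%). With all UMIs the first was again Klra9 alone, in 341 cells (7.11%), followed by the set of Klra4, Klra7, Klra8 and Klra9 in 327 cells (6.82%).

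Grouped by sign, 41.8% of NK-gated cells at 2000 UMIs held both an activating and an inhibitory member, 27.2% only inhibitory and 16.5% only activating members. With all UMIs these shares were 64.998%, 21.4% and 8.03%. Klra3 or Klra9, the receptors for the strain's own class I, were found in 50.5% of cells at 2000 UMIs and in 67.8% with all UMIs. Among the 3765 NK-gated cells with at least 5 member UMIs, a single member supplied over 50% of them in 65.9%. A cell with only 1 member detected passes this by definition, and a cell with 2 passes unless they tie. With all UMIs, 16.9% of NK-gated cells showed 1 member and 28.8% showed 2, so this share partly follows from the counting. It was not computed for cells with 3 or more members. The leading member, with ties counted for each gene, was Klra4 in 42.9%, Klra9 in 28.4%, Klra7 in 19.0%, Klra8 in 8.98%, Klra3 in 7.81% and Klra5 in 1.43%.

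The members were found together about as often as independent choice would give, with small departures on both sides. Over the 15 pairs at 2000 UMIs, the number of cells with both genes divided by the number expected from the 2 shares had a median of 1.09, ranged from 0.896 to 1.46 and was above 1 in 10 pairs. The activating pair Klra4 and Klra8 met in 724 cells against 609 expected, a ratio of 1.19. Klra7 met Klra8 in 578 cells against 484 expected (1.19), and Klra4 met Klra7 in 843 against 764 (1.10). The furthest above 1 was Klra5 with Klra9, in 67 cells against 45.9 (1.46). The lowest at 2000 UMIs was Klra4 with Klra9, the 2 most abundant members, in 776 cells against 866 expected (0.896). Klra4 was accordingly found in 40.4% of cells with Klra9 and in 48.3% of cells without it. With all UMIs and the expected number summed over 10 bins of depth, these ratios lay closer to 1. Klra4 with Klra9 then stood at 0.959 and Klra5 with Klra9 at 1.32, and the lowest pair was Klra4 with Klra5 (0.907).

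NK-gated cells called as a single hashtag fall into 4 samples of unknown condition, which serve here to see how far each ratio varied. The 1276 NK-gated cells called doublets of 2 hashtags and the 1064 called negative are in none of the 4. The ratio was above 1 in all 4 hashtags for Klra4 with Klra8 (1.09 to 1.22), Klra7 with Klra8 (1.13 to 1.21), Klra4 with Klra7 (1.05 to 1.23), Klra5 with Klra9 (1.453 to 1.84), Klra3 with Klra9 (1.03 to 1.21) and Klra8 with Klra9 (1.03 to 1.17). It was below 1 in all 4 for Klra4 with Klra9 (0.811 to 0.993). The other 8 pairs fell on both sides of 1. The Klra5 with Klra9 ratios rested on few cells, with 7, 13, 8 and 8 in hashtags 9 to 12 against 4.68, 7.05, 5.51 and 4.70 expected. Klra3 and Klra9 share transcript stretches, so a read of 1 gene counted for the other could move with their ratio; this was not tested.

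**Figure D3:**
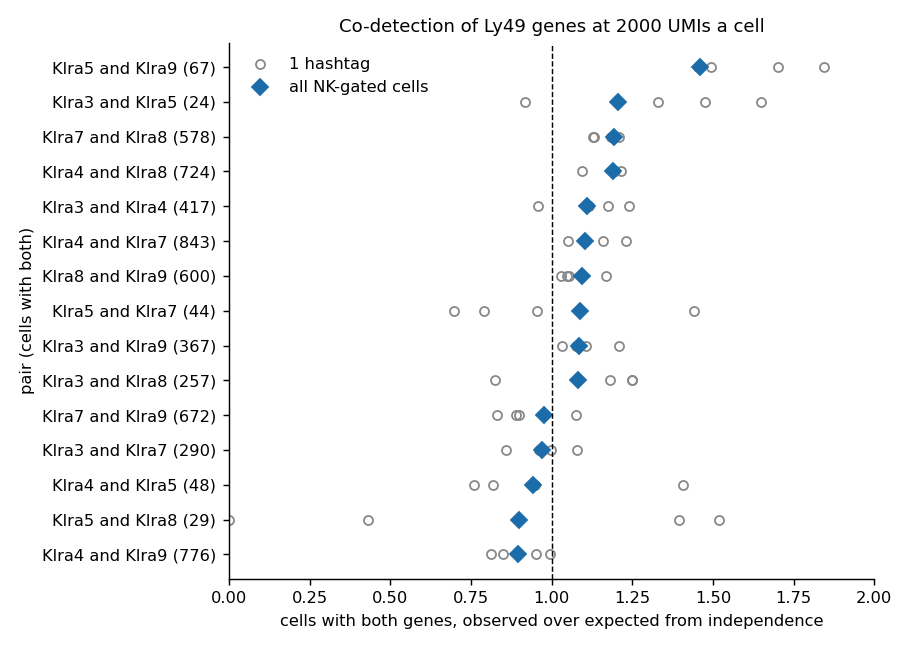
Number of NK-gated cells with both genes of a pair, divided by the number expected if the genes were independent, at 2000 UMIs a cell; diamonds are all NK-gated cells, open circles the 4 hashtags, numbers in brackets the cells with both, and the dashed line marks 1. Klra4 with Klra8 and Klra7 with Klra8 lie right of the line in each hashtag, and Klra4 with Klra9 lies left of it in each.

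In the 4 hashtags the family's level in NK cells differed little in size, though beyond counting error for hashtag 9. The interval of hashtag 9 (1584 to 1680 CPM) lay below those of the others, the lowest of which began at 1700 CPM. Cells of hashtag 9 were also deeper, with a median of 6948 UMIs against 5551.5 to 6140. It was 1631 CPM in 312 cells of hashtag 9, 1753 CPM in 759 cells of hashtag 10, 1814 CPM in 748 cells of hashtag 11 and 1740 CPM in 635 cells of hashtag 12, so the highest was 1.11 times the lowest. The other NK-gated cells were called doublets of 2 hashtags (1276) or negative (1064). Klra4 ranged from 568 to 651 CPM, Klra7 from 295 to 348, Klra8 from 193 to 251, Klra9 from 316 to 463, Klra3 from 138 to 189 and Klra5 from 17.1 to 25.6 CPM. Klra4 was the highest and Klra5 the lowest member in every hashtag. In T cells the family's level spread more widely, with 61.6, 104.8, 77.1 and 46.4 CPM in hashtags 9 to 12, and Klra7 reached 43.3 CPM in hashtag 10 against 14.4 to 22.4 CPM in the others.

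Genes that work with the family were read from a list of 50 genes: adaptors and phosphatases, class I ligands, NK cell maturation genes, effectors, other lectin-like receptors of the same gene complex and other Ly49 genes. No test was run over the 4 hashtags of this library, and a gene was counted when its level differed at least 2-fold and it had at least 50 UMIs. In NK over T cells 31 of the 49 list genes with enough UMIs were higher and 6 lower, with a median ratio of 3.30. Of all 12610 genes, 9.81% were higher and 8.14% lower, with a median of 1.05. The list consists largely of NK cell genes, so this excess follows from the choice of list and is no result about the family. Tyrobp, the adaptor of Ly49D and Ly49H, stood at 583 CPM in NK and 45.5 CPM in T cells, 12.8 times higher. Ptpn6, the phosphatase that the inhibitory members recruit, was 2.04 times higher and Inpp5d, another inhibitory phosphatase, 2.69 times. Zap70, a kinase of T cell receptor signaling that NK cells share, was at 0.426 of the T level. H2-K1, a ligand of Ly49C and Ly49I, was nearly level (1732 against 1585 CPM).

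Of the 5 other Ly49 genes in the table, Klra1 lay between Klra5 and Klra3 in NK cells and the other 4 lay below Klra5. Klra1 reached 85.4 CPM in 17.8% of NK-gated cells and lay 8.48 times above its T level. Klra6 stood at 9.69 CPM, Klra10 at 5.32 and Klra17 at 1.28 CPM. Klra2, known from myeloid cells, had the opposite pattern to the family, with 47.8 CPM in 20.9% of myeloid-gated cells and 2.42 CPM in NK cells.

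NK cells with at least 2 members at 2000 UMIs (2588 cells) were set against those with none (688 cells), using all their UMIs. Of 48 list genes, 10 were at least 2-fold higher and 4 lower, with a median ratio of 1.39. Of all 10737 genes, 1.55% were higher and 6.72% lower, with a median of 0.992. The lower list genes are thus near the share over all genes. Klrg1, a receptor of terminally mature NK cells, stood at 60.3 against 18.3 CPM (ratio 3.30, interval 2.735 to 3.9996). Klrb1c, which encodes NK1.1, was 2.51 times higher and Klrd1, the CD94 partner chain, 2.23 times. The effectors Gzmb, Gzma and Prf1 were 2.25, 2.15 and 2.06 times higher. The remaining 4 of the 10 were Klrb1f (2.08) and the Ly49 genes Klra6 (3.52), Klra1 (2.88) and Klra10 (2.51). Klra10 shares stretches of 90 bases with Klra3 and Klra9, members that set the groups, and 84.4% of its positive NK-gated cells held 1 UMI. The part of shared reads in its ratio was not tested. Il7r, the IL-7 receptor chain of less mature and innate lymphoid cells, was at 0.312, Cd226, an activating receptor, at 0.238, Cxcr6, a receptor of tissue-resident lymphocytes, at 0.187, and Klra2 at 0.167. Klrc1, the inhibitory NKG2A chain that also reads class I, was at 0.556. Tbx21 (1.04) and Zeb2 (1.04), transcription factors of NK maturation, were nearly level, and Eomes stood at 1.90. By list, 3 of 8 effectors and 3 of 11 other lectin-like receptors were higher and none lower, while of 15 maturation genes 1 was higher and 3 lower, with a median of 1.04.

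The depth at which cells were grouped changed several of these values. With the groups set on all UMIs instead (3714 cells with at least 2 members and 269 with none), Klrg1 was at 1.75, Klrb1c at 1.58, Klrd1 at 1.54, Klrb1f at 1.61, Gzma at 1.68 and Prf1 at 1.72, all under 2-fold. Gzmb (2.19), Klra1 (4.003) and Klra10 (2.86) stayed past 2-fold, as did Cd226 (0.114), Cxcr6 (0.0834) and Il7r (0.391). Itgam (2.26), Klrc1 (0.345), Klrb1b (0.449) and Cd160 (0.464) were past 2-fold there and not with groups set at 2000 UMIs. Klra2 and Klra6 had 0 UMIs in the 269 cells, so the lower level of Klra2 in cells with several members was not kept.

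Transcripts of other lineages moved with the groups set at 2000 UMIs. Scrublet marked 6.92% of cells with at least 2 members and 19.5% of cells with none, and their median depths were 5473 and 7333.5 UMIs. All 4 B cell markers were lower in cells with several members, with a summed level of 21.7 against 71.1 CPM, and 7 of 8 myeloid markers were lower, with 320 against 3909 CPM. The myeloid sum was mostly S100a9 (84.1 against 1834 CPM) and S100a8 (80.7 against 1526 CPM). Cd3d, Cd3e and Cd3g were at 0 by the gate. All 9 NK markers, which include the gate genes Ncr1 and Klre1, were higher, with a summed level of 9774 against 4805 CPM (2.03 times). Gzma, Prf1, Klrd1 and Klrb1c are among these 9, so their ratios are not separate from this shift. All 5 markers of type 1 innate lymphoid cells were lower, with 35.9 against 98.4 CPM. With the marked cells and every cell with a Cd79a, Ms4a1, Lyz2 or S100a8 UMI left out, Klrg1 stood at 2.62, Klrb1c at 2.29, Cd226 at 0.142, Il7r at 0.231 and Cxcr6 at 0.115, still past 2-fold. The effectors no longer were, with Gzmb at 1.94, Gzma at 1.78 and Prf1 at 1.68, and Klrd1 stood at 1.82 and Klrb1f at 1.67. Ly6c2, from the maturation list, (2.28) and Klrc1 (0.430) were past 2-fold there and not with all cells. Tbx21 stood at 1.32, Zeb2 at 0.976 and Eomes at 1.49. The summed NK markers were then 1.69 times higher. Klra2 then held 0 UMIs in cells with no member, so its ratio has no value there.

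Cells with exactly 1 member (1460) over those with none had 1 of 48 list genes higher and 3 lower, against 0.524% higher and 3.35% lower of 10307 genes.

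Split by single members, the cells had fewer list genes past 2-fold. NK cells with Klra9 at 2000 UMIs (1923 cells) over those without (2813 cells) had 5 of 48 list genes at least 2-fold higher and 2 lower. Of all 11473 genes, 0.802% were higher and 3.97% lower, so the lower list genes are near that share. Klrg1 stood at 77.3 against 27.2 CPM (ratio 2.84, interval 2.56 to 3.14) and Klrb1c at 182 against 74.5 CPM (2.44). Klrb1b, an inhibitory receptor gene of the NKR-P1 family, stood at 217 against 108 CPM (2.01), and Klra10 (2.08) and Itga1 (2.02) were the other higher genes. Klra10 shares transcript stretches with Klra9, and the part of this in its ratio was not tested. Below 0.5 lay Cd160, a receptor of innate-like lymphocytes (0.361), and Klra2 (0.332). Short of 2-fold, Itgam, which encodes the mature marker CD11b, was at 1.74, and Cd27 and Tcf7, genes of less mature NK cells, were at 0.597 and 0.543. The granule genes Gzmb (1.68), Prf1 (1.67) and Gzma (1.63) lay above 1, and Ifng was close to 1 (0.956).

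These Klra9 ratios kept their side of 1 in all 4 hashtags for Klrg1 (1.67 to 3.14), Klrb1c (2.01 to 2.96), Klrb1b (1.60 to 2.21), Itgam (1.41 to 2.39), Cd27 (0.377 to 0.670) and Tcf7 (0.306 to 0.617). Itga1 did not (0.901 to 3.87). With the Scrublet cells and the cells with a B cell or myeloid UMI left out, Klrg1 was at 2.66, Klrb1c at 2.35, Cd27 at 0.564 and Tcf7 at 0.514. Klra2 turned to 2.84 there on few UMIs and is not read as different. Klra9-positive cells had a median of 5053 UMIs and Klra9-negative ones 6616, and 7.85% and 12.6% were marked by Scrublet. Summed myeloid markers stood at 477 and 1911 CPM.

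Cells with Klra4 (2134) over those without (2602) had 1 of 48 list genes at least 2-fold higher and 5 lower. Of all 11473 genes, 0.305% were higher and 2.58% lower. Klrc1 stood at 79.9 against 195 CPM (0.409, interval 0.384 to 0.436) and Klrb1b at 84.5 against 193 CPM (0.438). The other lower genes were Cd226 (0.265), Cxcr6 (0.356) and Itga1 (0.497), and the higher gene was Klra6 (2.26). Ifng, the cytokine that PMA and ionomycin evoke, stood at 1741 against 1086 CPM (1.60), and Ccl3 (1.41) and Xcl1 (1.39), chemokine genes of activated NK cells, lay above 1 as well. Klrg1 (0.887), Itgam (0.831), Tcf7 (0.976) and Cd27 (1.26) stayed nearer to 1 than with Klra9.

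In the 4 hashtags Klrc1 lay between 0.301 and 0.478, Klrb1b between 0.349 and 0.519, Cd226 between 0.270 and 0.421 and Ifng between 1.10 and 2.46. Klrb1b thus lay below 1 with Klra4 and above 1 with Klra9 in every hashtag. Depth differed little between Klra4-positive and Klra4-negative cells (medians 5803.5 and 5972.5 UMIs), and Scrublet marked 8.39% and 12.5%. Summed myeloid markers stood at 269 and 2297 CPM. Without the marked cells and those with a B cell or myeloid UMI, Klrc1 was at 0.355, Klrb1b at 0.376, Cd226 at 0.190 and Ifng at 1.499. Trac, a T cell receptor gene found in 15.1% of NK-gated cells, was 1.82 times higher with Klra4 (1.38 to 1.98 over the hashtags), with Cd3d, Cd3e and Cd3g at 0 by the gate. The source of these Trac transcripts was not tested.

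**Figure D4:**
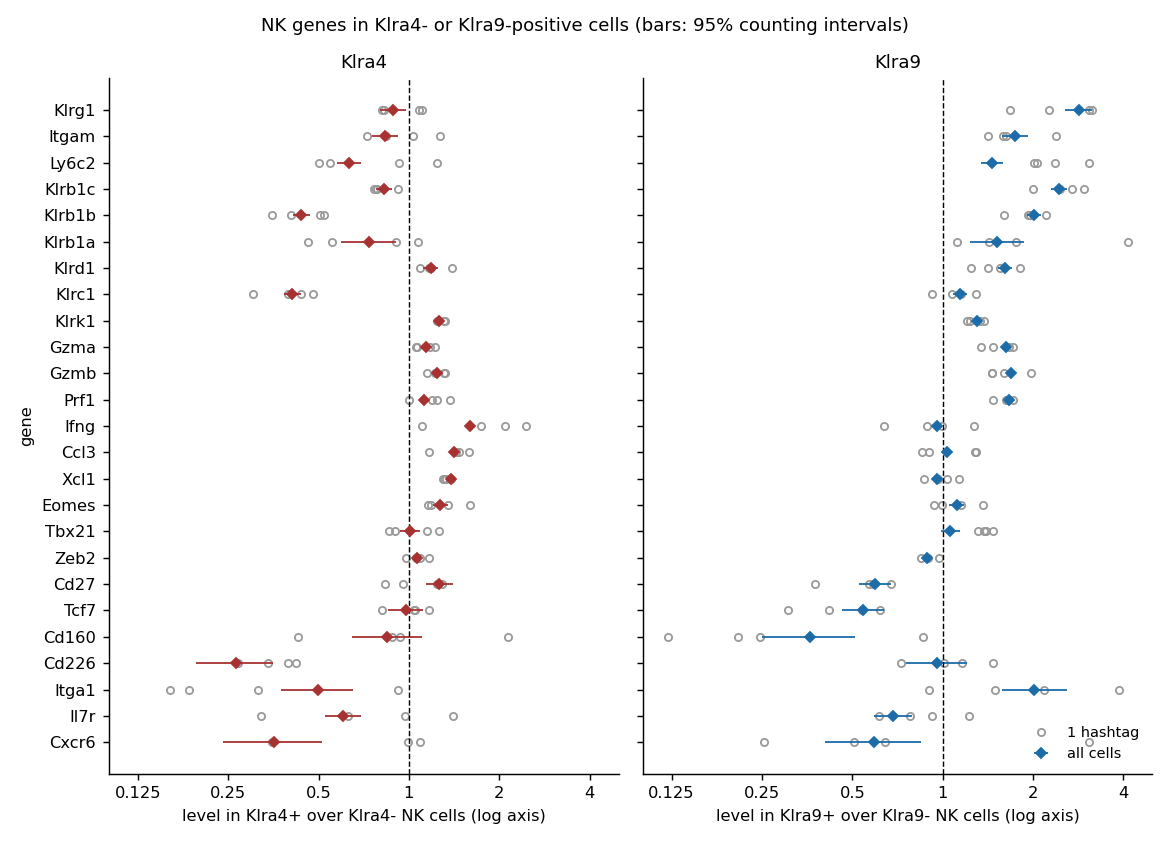
Level of 25 listed genes in NK cells with Klra4 over those without (left) and with Klra9 over those without (right), on log axes; diamonds are all NK-gated cells with 95% counting intervals, open circles the 4 hashtags (ratios under 0.1 are not drawn), and the dashed line marks 1. Klrg1, Klrb1c and Klrb1b lie right of the line with Klra9, and Klrc1, Klrb1b and Cd226 lie left of it with Klra4.

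With the cells split by Ifng instead, Klra4 was the member whose shares had intervals that did not overlap. It was found in 49.0% (47.1 to 51.0) of the 2531 NK cells with an Ifng UMI at 2000 UMIs and in 41.996% (39.9 to 44.1) of the 2205 without. Klra9 was found in 40.9% and 40.7%, Klra7 in 35.5% and 36.6%, Klra8 in 29.2% and 28.98%, Klra3 in 17.7% and 17.2% and Klra5 in 2.96% and 2.04%, with intervals that overlap, and the mean number of members was 1.75 and 1.67. By level at 2000 UMIs, Klra4 stood at 715 CPM (692 to 739) against 587 CPM (565 to 610). Klra5 stood at 31.6 CPM (26.9 to 36.9) against 20.9 CPM (16.8 to 25.6), and the intervals of the other 4 members overlapped. The Klra5 UMIs came from few cells (2.96% and 2.04%), and the level intervals do not cover how UMIs bunch in single cells.

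The remaining members had few list genes past 2-fold. Klra7-positive cells had 0 of 48 list genes higher and 3 lower, with Il7r at 0.456, Cxcr6 at 0.344 and Klra2 at 0.293. Of all 11473 genes, 0.157% were higher and 4.11% lower, so the lower count is near that share. Klra8-positive cells had 0 of 48 higher and 3 lower, with Cd226 at 0.493, Cxcr6 at 0.491 and Klra2 at 0.375, against 0.244% and 2.81%. Without the Scrublet cells and those with a B cell or myeloid UMI, Klra2 was at 0.971 with Klra7 (4 and 7 UMIs), so that difference was not kept, while Il7r was at 0.388 and Cxcr6 at 0.322. With Klra8, Cd226 was then at 0.417 and Cxcr6 at 0.481, and Klra2 had 0 UMIs against 11. Over the hashtags Cd226 (0.328 to 1.27) and Cxcr6 (0.140 to 2.92) lay on both sides of 1 with Klra8. Scrublet marked 7.67% of cells with Klra7 and 12.3% without, and 6.51% with Klra8 and 12.3% without. Summed myeloid markers stood at 308 against 1962 CPM for Klra7 and at 1498 against 1386 CPM for Klra8, and summed B cell markers at 25.8 against 51.4 CPM and 25.8 against 48.8 CPM. Klra5 was found in only 113 cells at 2000 UMIs, where Klrb1c was 2.04 times higher and Il7r at 0.386. No other of the 48 list genes passed. Over all genes 3.54% were higher and 12% lower, so neither count exceeds that share. For Klra3-positive cells 0 list genes passed in either direction, against 0.331% and 3.29%. Klra3 and Klra9, which share most of their sequence, had ratios of 1.63 and 2.84 for Klrg1 and of 0.872 and 2.01 for Klrb1b.

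The gene most like Klra9 over the 4794 NK-gated cells, by the correlation of log levels across 7819 genes found in at least 5% of cells, was AW112010 (Pearson r = 0.328), followed by Fcer1g (0.314), a signaling adaptor, and Gzma (0.298). For Klra4 they were Klrk1 (0.170), which encodes NKG2D, Setbp1 (0.165) and Airn (0.163), and for Klra8 Setbp1 (0.145), Klrk1 (0.122) and Ptprc (0.117). For Klra7 they were Setbp1 (0.126), Klrk1 (0.115) and Ccl5 (0.103), for Klra3 Gzma (0.139), Ccl5 (0.132) and Gzmb (0.123), and for Klra5 Insyn2b (0.0796), Prf1 (0.0737) and Osbpl3 (0.0719). These cells share 1 library and differ in depth, and the values under 0.2 are too weak to be read as a pattern.

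Within T cells the family's level was highest in small subsets. T-gated cells were split by their own transcripts, with the 34 Klrb1c-positive cells allowed to fall in a second subset. These NK1.1-coding cells held a member in 82.4% (65.5 to 93.2) and 591 CPM. The 112 cells with the gamma delta gene Trdc and no Cd4, Cd8a or Cd8b1 held a member in 36.6% (27.7 to 46.2) and 266 CPM (240 to 295). Trdc stood at 53.7 CPM in NK-gated and 34.1 CPM in T-gated cells, so it does not mark gamma delta T cells alone. The 520 CD8 cells held a member in 15.4% and 64.1 CPM (58.3 to 70.3), the 271 CD4 cells in 11.4% and 40.0 CPM (33.9 to 46.8). The 839 others held a member in 16.4% and 87.4 CPM (81.4 to 93.7). For these 3 subsets the intervals of the shares overlap, while those of the levels do not. The level intervals do not cover how UMIs bunch in single cells. A single CD8 cell held 36 of 447 member UMIs and a single CD4 cell 24 of 155, so these 3 levels are not read as different. At 2000 UMIs the shares were 58.8%, 23.2%, 6.35%, 3.69% and 7.92% in the same order. In the 839 others Klra7 stood at 42.5 CPM, the largest part of the 87.4 CPM.

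Klre1, an NK gene, moved with these values. Without the T-gated cells that held a Klre1 UMI, the level in Klrb1c cells went from 591 to 406 CPM with 11 of the 34 cells left (54.5% with a member), in Trdc cells from 266 to 97.7 CPM, in CD8 cells from 64.1 to 31.8 CPM, in CD4 cells from 40.0 to 14.7 CPM, near the 13.7 CPM of the B gate, and in the others from 87.4 to 36.7 CPM. Without the cells Scrublet marked, 18 Klrb1c cells were left, with a member in 66.7% and 640.4 CPM, the Trdc cells held 211 CPM and the CD8 cells 54.9 CPM. Whether these transcripts belong to the T cells or to NK cells in the same droplet was not tested. In T cells most pairs of members also came together more often than their shares give. At 2000 UMIs the ratio over the 15 pairs had a median of 5.72, ranged from 0 to 17.7 and was above 1 in 12. The highest was Klra4 with Klra8, in 10 cells against 0.565 expected. No pair met in more than 12 cells, and the expected numbers take the T gate as 1 group although its subsets differed in level.

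**Figure D5:**
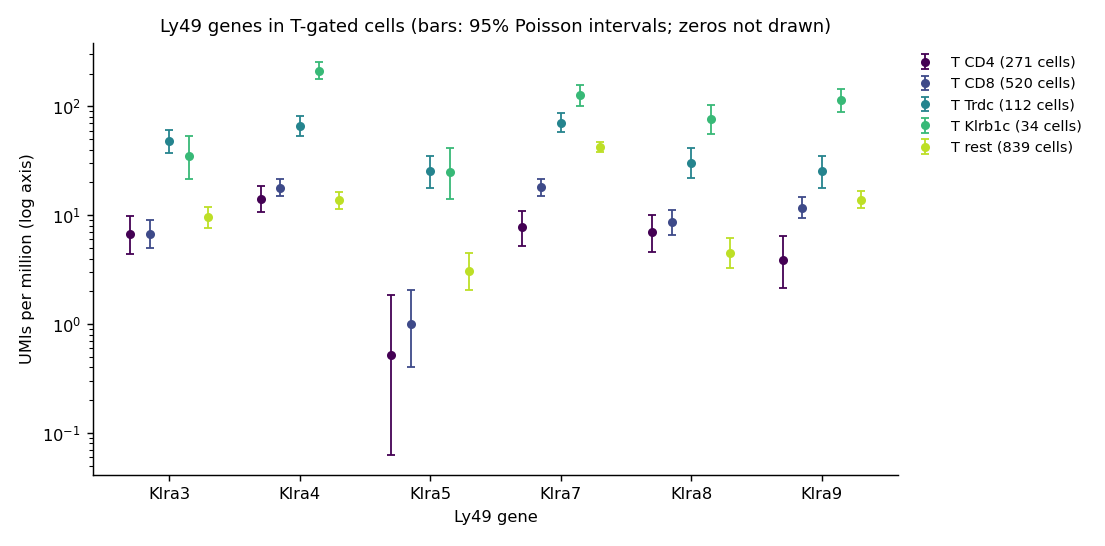
Level (CPM, log axis) of each Ly49 gene in T-gated cells split into CD4, CD8, Trdc and Klrb1c cells and the rest, with 95% Poisson intervals as bars; values of 0 are not drawn. The Klrb1c and Trdc cells lie above the CD4 and CD8 cells for every gene, for Klra5 on only 3 Klrb1c and 2 Trdc cells with a UMI. Without cells holding Klre1 (not drawn), Trdc cells had 0 Klra5 UMIs, and Klra9 stood at 3.96 CPM in Trdc and 3.94 CPM in CD8 cells.

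Among CD8 cells, 33 held a member at 2000 UMIs and 487 did not. The genes compared here were chosen after values of these data were seen, and no share over all genes was computed. Gzma stood at 1953 against 237 CPM, Klrk1 at 356 against 58.2 CPM, Ccl5 at 5806 against 1627 CPM and Tyrobp at 103 against 20.4 CPM (ratio 5.05). Tbx21 (77.2 against 84.04 CPM), Cd160 (168 against 144 CPM), Klrg1 and Itga1 had ratios whose counting intervals include 1. The T cell gene Trac was lower in the cells with a member (249.5 against 355 CPM, ratio 0.702, interval 0.582 to 0.840), while Cd8b1, which the gate itself uses, was found in 90.9% and 91.8%. Klre1 was found in 57.6% of the 33 cells and in 10.3% of the others, Scrublet marked 21.2% and 9.86%, and their part in these differences was not tested.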

How the data were processed

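Spleen cells of the 3 conditions were pooled, and 1 gene expression and 1 hashtag library were sequenced with the 10x Genomics 3′ chemistry. The deposited values are whole UMI counts per gene, hashtag and barcode, which the authors obtained with Cell Ranger (7.2.0 per the submitters' processing notes) on GRCm38 and did not normalize.

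Gates, levels (CPM, summed over cells) and ratios were computed in Python 3.11.15 (NumPy 2.4.6, SciPy 1.17.1). Intervals are exact at 95% (Poisson for levels, Clopper-Pearson for shares, conditional binomial for ratios) and cover counting error only. Cells were thinned to 2000 UMIs without replacement. Scrublet (scanpy 1.11.5) was run at an expected doublet rate of 0.1, and the cells it marked were kept unless stated. HTODemux (Seurat 5.3.0, positive quantile 0.85) called hashtags within the NK and the T gate separately. The ratios and co-detection were tested on simulated data. No test was run: the labels give 1 pooled library, and the 4 hashtags, samples of unknown condition, served only to show how values varied.

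Named genes are the 6 members, the pathway and marker lists (50 of 52 pathway genes are in the gene table) and, for each member, the 3 genes of highest correlation; genes of CD8 cells were chosen after their values were seen. The members and lists were chosen with earlier results of these data known. Leaving out Scrublet cells, Klre1-positive T cells and cells with other-lineage UMIs from the list and subset comparisons was added after seeing the data. Other alternatives changed cell filters, gates, detection, depth, averaging and the hashtag threshold.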

Additional observations from a re-analysis of the deposited data

How the results depend on the processing

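No paired analysis was possible because the labels number no samples that could be paired across groups; ratios within each hashtag stand in the report, and no test was run over them. NK cells stayed above T cells in each alternative run, while values moved past their counting intervals. Of the 15 pairs, 4 crossed 1: with 2 UMIs required Klra3 with Klra5 went to 0.916, Klra3 with Klra7 to 1.09 and Klra7 with Klra9 to 1.07, and Klra5 with Klra8 to 1.07, 1.10 and 1.02 at 1000, 4000 and all UMIs. Without the cells Scrublet marked, the share of T cells with a member was 14.1%, the summed level 1906 CPM in NK and 72.3 CPM in T cells (26.4 times), the mean number of members 1.79, the Trdc cells' level 211 CPM and the NK level 306 times that of the B gate (123 with all cells). With Ncr1 and Klre1 both required in NK cells and Klre1 absent from T cells, the shares were 95.9% and 11.3%, the levels 1754 and 35.8 CPM (49.0 times) and the mean 1.79. Without cells holding Cd79a, Ms4a1, Lyz2 or S100a8, the levels were 1898 and 113 CPM (16.8 times) and the mean 1.79. HTODemux singlets gave a T share of 14.3% and levels of 1748 and 79.6 CPM (21.96 times). With 2 UMIs required, the shares were 89.3% and 11.6%, the mean 0.988 and the pooled co-detection ratio 1.13 (1.06 with 1 UMI). Thinned to 1000 UMIs the shares were 72.8% and 5.46% and the mean 1.21, thinned to 4000 they were 91.3% and 11.9% and the mean 2.16, and unthinned the mean was 2.45. Averaged over cells, the NK level was 2013 CPM and 22.5 times the T level. At a positive quantile of 0.99 the highest hashtag was 1.27 times the lowest. Without Klre1-positive cells the Trdc level was 97.7 CPM. Causes were not tested. With 1 library, no spread between animals is known.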
